A study of Mus musculus with 6 samples.

Results

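The genes described here are 32 named members of the p53 response: Trp53, which encodes p53, its inhibitors Mdm2 and Mdm4, and 29 genes known as p53 targets or as brakes on growth. They were taken by symbol from a table of 48709 genes, and all 32 were found there, among 26747 genes that passed a filter on low values. All 32 members passed it.

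RNA of whole embryonic mouse hearts of the C57BL6/J strain was sequenced in 3 control and 3 double knockout libraries. Controls carried RBPMS flox/flox and RBPMS2 flox/flox alleles without Cre. Double knockouts carried the same floxed alleles and were XML Cre pos, for loss of both RNA-binding protein genes in cardiomyocytes. The controls were littermates, Cre was present in the knockout group alone, and so effects of Cre and of gene loss cannot be told apart. Values are sums over all cells of the heart, in which fewer cells of a type and less RNA per cell cannot be told apart. The age of the embryos is not given in the sources used here, nor whether each library came from a separate animal.

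p53 is a transcription factor that DNA damage and other stresses stabilise. It switches on genes that stop the cell cycle, repair DNA, change metabolism or start cell death, and one of them, Mdm2, encodes the ubiquitin ligase that marks p53 for destruction, which closes a feedback loop. In heart muscle cells Mdm2 is needed to hold p53 activity down. p53 activity is set mainly through the protein, which was not measured here, and several members also answer to other stress regulators.

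p53 binds DNA as a tetramer on 2 copies of a half-site of 10 bases. The p53 half-site was searched in RefSeq promoter windows of the GRCm38.p6 build. These run from 250 bases before to 50 bases after a start, and a gene can have more than 1 start. It reads the same on both strands, so 1 scan covers both. Of the 32 members, 24 had windows in the table, 31 in all. The 8 without a window were not searched: Tnfrsf10b, Trp53inp1, Rrm2b, Xpc, Perp, Zmat3, Ddb2 and Pmaip1. A complete half-site lay in 11 of the 31 windows (35.5%), against 8.36% of all 32851 windows. The 2 windows of Aen overlap and hold the same half-site, so windows are not separate promoters. By gene, 10 of the 24 members had a half-site. A pair of half-sites, at most 13 bases apart and with at most 1 mismatch between them, lay in 2 of the 31 windows (6.45%), against 0.627% of all windows. The members with a pair were Ccng1 and Rps27l. The windows below belong to Ccng1, as an example with a pair, to Trp53, which was lower in the knockout, and to Btg2 and Eda2r, which were higher in it. Capitals mark half-sites. The pair of Rps27l, at chr9:66946296-66946315 on the plus strand, is given alone.
Ccng1 (chr11:40755237-40755536, minus strand): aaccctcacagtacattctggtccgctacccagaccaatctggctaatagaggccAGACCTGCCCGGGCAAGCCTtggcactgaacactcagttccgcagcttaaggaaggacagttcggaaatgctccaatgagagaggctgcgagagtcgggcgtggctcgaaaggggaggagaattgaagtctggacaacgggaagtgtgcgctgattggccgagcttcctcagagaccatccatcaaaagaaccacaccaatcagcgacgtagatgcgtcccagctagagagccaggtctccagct
Rps27l pair: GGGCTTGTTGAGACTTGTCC
Trp53 (chr11:69580109-69580408, plus strand): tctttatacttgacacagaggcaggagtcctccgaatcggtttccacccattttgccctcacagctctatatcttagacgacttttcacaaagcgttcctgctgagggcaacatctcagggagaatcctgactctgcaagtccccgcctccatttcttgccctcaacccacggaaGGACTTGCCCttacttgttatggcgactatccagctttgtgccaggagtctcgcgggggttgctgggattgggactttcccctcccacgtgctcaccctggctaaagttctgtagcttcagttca
Btg2 (chr1:134079106-134079405, minus strand): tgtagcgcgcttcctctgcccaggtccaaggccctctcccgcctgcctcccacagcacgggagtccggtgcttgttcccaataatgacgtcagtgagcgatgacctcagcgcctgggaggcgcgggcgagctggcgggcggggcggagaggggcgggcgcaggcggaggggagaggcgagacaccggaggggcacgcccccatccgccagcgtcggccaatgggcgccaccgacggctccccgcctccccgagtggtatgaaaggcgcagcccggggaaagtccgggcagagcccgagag
Eda2r (chrX:97377160-97377459, minus strand): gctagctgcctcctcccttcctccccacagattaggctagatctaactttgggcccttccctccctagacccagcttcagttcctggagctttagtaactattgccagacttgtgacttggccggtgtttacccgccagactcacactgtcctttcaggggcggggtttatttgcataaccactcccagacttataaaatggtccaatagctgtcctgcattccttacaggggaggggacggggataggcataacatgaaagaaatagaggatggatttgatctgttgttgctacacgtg
The pair of Ccng1 begins 195 bases before the start of the gene and has no bases between its copies. The half-site of Trp53 begins 75 bases before its start. The windows of Btg2 and Eda2r hold no complete half-site. Tnfrsf10b and Trp53inp1, also higher in the knockout, had no window to search. Mdm2, Bax, Aen, Ei24, Gadd45a, Polk and Sesn1 each had a complete half-site in at least 1 window. In Polk and Sesn1 that window belongs to a start well inside the gene. Their other window, nearer the beginning of the gene, had none. A match is a string of letters, and binding of p53 was not measured here.

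Most members did not pass the test for a difference between genotypes, and most of those that did were higher in the knockout. Of 32 members, 4 rose (12.5%) and 1 fell (3.13%) at an adjusted p under 0.05, where 2.31% of all tested genes were called higher and 2.55% lower. The risers were Tnfrsf10b, Eda2r, Trp53inp1 and Btg2, and the gene that fell was Trp53 itself. Log2 fold changes throughout are differences of mean log2(value + 1), positive where the knockout is higher, with the SE of the limma fit. Counts are normalised read counts as deposited. The median log2 fold change of the members was 0.13, against 0.02 over all tested genes; 21 members lay above 0 and 11 below. Among tested genes that averaged 10 counts or more, as every member did, 3.4% were called higher and 3.78% lower.

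**Figure D1:**
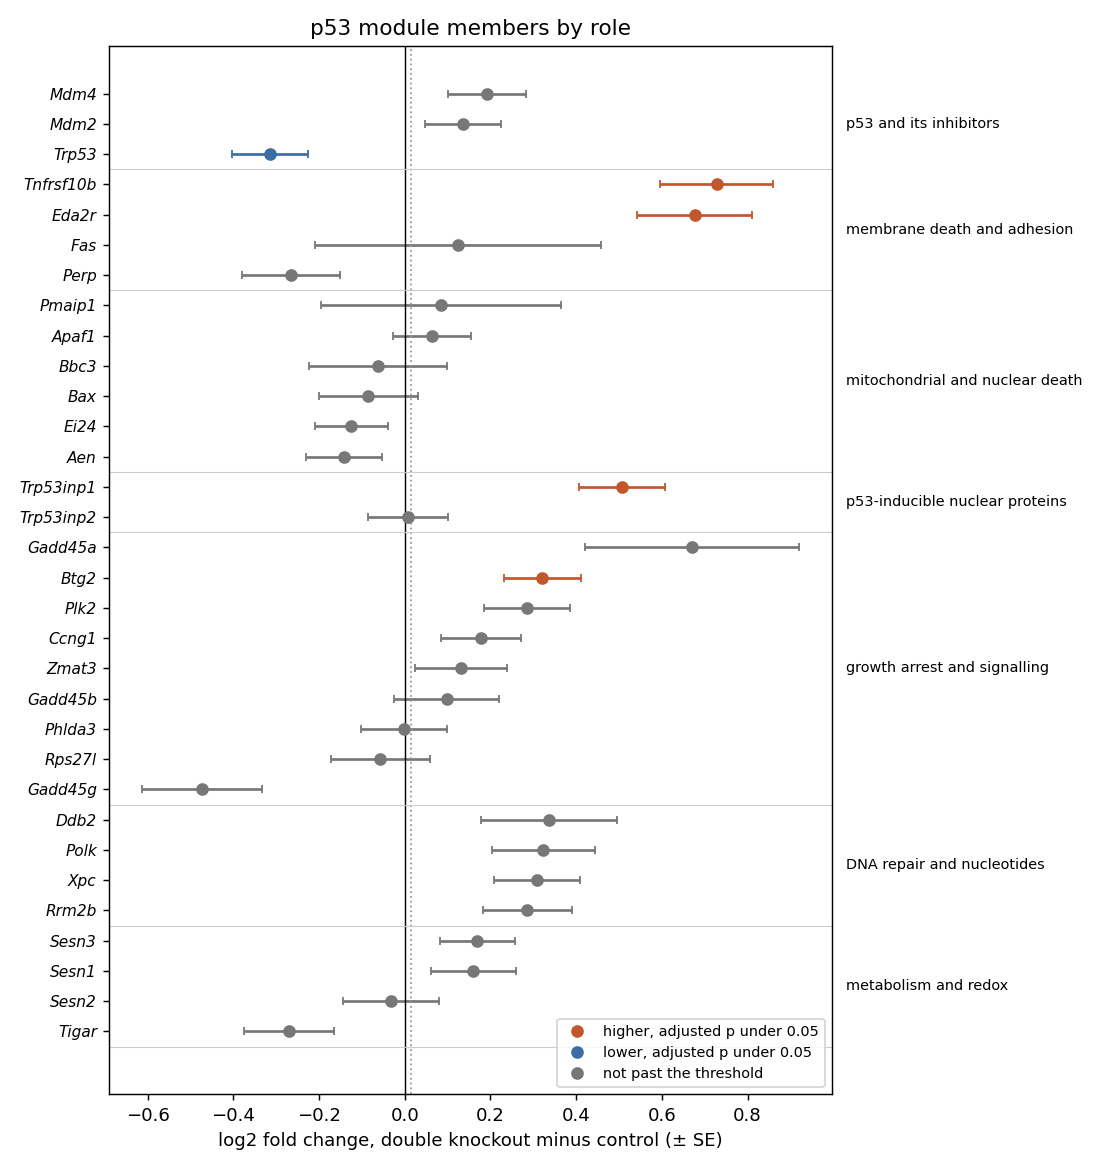
Log2 fold change of each member (x axis, on the log2(value + 1) scale, positive where the double knockout is higher; bars are SE, 3 libraries per genotype), grouped by role on the y axis; the dotted line is the median of all tested genes. The coloured points are the 4 members that rose and the 1 that fell, and the other 27 in grey did not pass the threshold.

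The counts rest on a few settings and libraries. The libraries numbered 3 in both genotypes had a male pattern and the other 4 a female one: Xist, the RNA that silences an X chromosome in females, had 6 counts in control 3, 20 counts in knockout 3 and 19501 to 25229 counts in the others. Without both, 0 members passed, as 0.0507% of all genes were called higher and 0.0868% lower with 2 libraries a genotype; all 5 members kept their direction. Between the libraries numbered 3 alone, the log2 difference was 0.98 for Tnfrsf10b, 0.79 for Trp53inp1, 0.35 for Btg2 and -0.52 for Trp53. Between the libraries numbered 1 and 2, the log2 ratio of mean counts, each with 1 added, was 0.62, 0.37, 0.31 and -0.21 for the same genes. Without the robust option of limma, 1 member passed (Eda2r), with 0.538% of all genes called higher and 0.77% lower. Deviations also followed GC content by library: Spearman's rho over 11905 genes lay between 0.22 and 0.40 for the controls, and was 0.13, -0.18 and -0.59 for the numbered knockouts, a description across genes that are not independent. With this trend and one for length removed, 5 members rose and 1 fell, where 2.82% of all genes were called higher and 3.1% lower; the additional riser was Xpc. Both targeted genes were lower in every knockout library than in any control: Rbpms had a log2 fold change of -2.44 ± 0.08 and Rbpms2 of -0.83 ± 0.10.

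Trp53 (chromosome 11, 69580359 to 69591873, plus strand, mm10) encodes the transcription factor at the head of the pathway. Control libraries 1 to 3 held 1528, 1627 and 1687 counts and the knockouts, in the same order, 1384, 1339 and 1176. All knockouts lay below all controls, and knockout 3 was the lowest. The mean fell from 1614 ± 80.3 to 1300 ± 109 (SD, n = 3 each), which is -0.31 ± 0.09 in log2 (limma adjusted p = 0.0475). This call lies close to the threshold: it was lost without control 1, 2 or 3 or knockout 2 or 3, where the adjusted p reached 0.250, and with the replicate block (adjusted p = 0.0948). It was also lost without the robust option (adjusted p = 0.118), and after removal of the GC and length trend the difference was -0.23 (adjusted p = 0.0463).

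The inhibitors of p53 did not pass the threshold. Mdm2 (chromosome 10, 117688875 to 117710758, minus strand) encodes the ubiquitin ligase of p53 and is itself a target of it. Its counts were 1216, 1257 and 1222 in controls and 1332, 1248 and 1492 in knockouts. Knockout 2 lay within the control range, and the log2 fold change was 0.14 ± 0.09 (adjusted p = 0.434). Mdm4 (chromosome 1, 132959484 to 133030561, minus strand) encodes a relative of Mdm2 that binds p53 and blocks its activity. Its counts were 3251, 3509 and 3036 in controls and 3859, 3353 and 3988 in knockouts, which overlap through control 2 and knockout 2. The log2 fold change of Mdm4 was 0.19 ± 0.09 (adjusted p = 0.262), and 0.08 after removal of the GC and length trend.

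**Figure D2:**
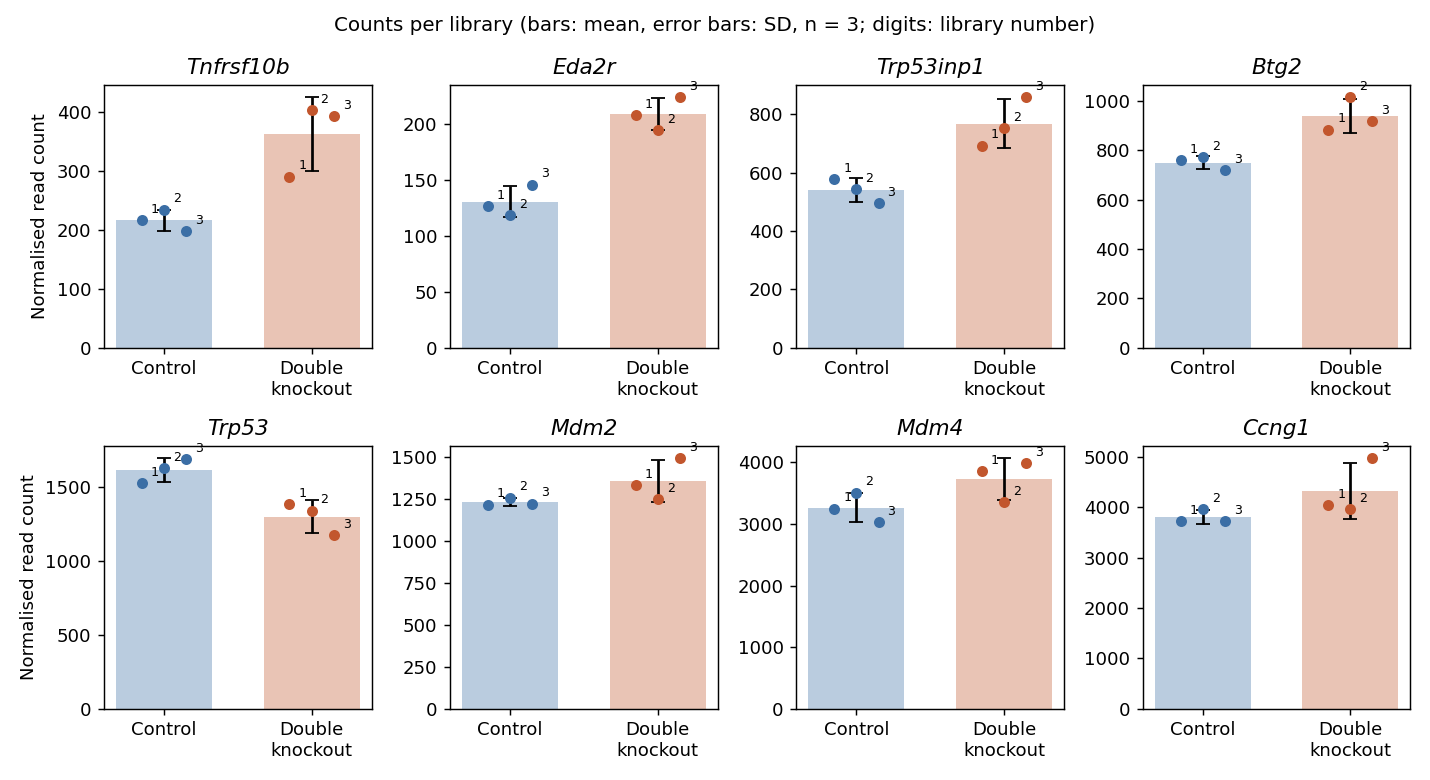
Normalised read counts (y axis, starting at 0) of 8 members in each library (points, numbered by library); bars are means and error bars SD of 3 libraries per genotype. Tnfrsf10b, Eda2r, Trp53inp1 and Btg2 are above every control in all 3 knockouts and Trp53 is below, while Mdm2, Mdm4 and Ccng1 overlap between genotypes.

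Receptors at the cell surface gave the greatest rises among the members that passed. Tnfrsf10b (chromosome 14, 69767472 to 69784411, plus strand) encodes the mouse death receptor for the ligand TRAIL. Its counts were 217, 235 and 199 in controls and 291, 404 and 394 in knockouts, with no overlap and knockout 1 the lowest of the knockouts. The mean rose from 217 ± 18 to 363 ± 62.6, or 1.66-fold (log2 0.73 ± 0.13; limma adjusted p = 0.00221). The call held with each of the 6 libraries left out in turn (adjusted p up to 0.0460) and after removal of the GC and length trend (0.74, adjusted p = 0.00183). It was lost without the robust option (adjusted p = 0.0651) and without both libraries numbered 3 (0.60, adjusted p = 0.338).

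Eda2r (chromosome X, 97333840 to 97377216, minus strand) encodes a receptor of the same family that binds an isoform of ectodysplasin A. Its counts were 127, 119 and 146 in controls and 208, 195 and 224 in knockouts. In each genotype the male-pattern library was the highest, and no knockout overlapped a control. The mean rose from 131 ± 13.9 to 209 ± 14.5, or 1.60-fold (log2 0.68 ± 0.13; limma adjusted p = 0.00519). The log2 ratio of counts, each with 1 added, was 0.61 between the libraries numbered 3 and 0.71 between the mean counts of libraries 1 and 2. Of 16 alternative fits, 15 kept the call; the exception left out both libraries numbered 3 (adjusted p = 0.164).

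The remaining surface proteins did not pass. Fas, another death receptor, had the lowest level of all members, at 11, 13 and 21 in controls and 18, 20 and 11 in knockouts. These groups overlap, and the SE of the log2 fold change was 0.33, against 0.13 for Tnfrsf10b. Perp, a membrane protein of desmosomes and of p53-dependent death, was at 1281, 1320 and 1370 in controls and 1033, 940 and 1371 in knockouts. Knockout 3 stood at the control level while the other knockouts lay below it (-0.27 ± 0.11, adjusted p = 0.215). Without knockout 3 Perp was at -0.42 (adjusted p = 0.0281), the 1 of 16 alternative fits in which it passed.

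Of 6 genes that carry out cell death at the mitochondria or in the nucleus, none passed with limma and 0 passed with voom weights. An unadjusted limma p under 0.05 was reached by 0 of 6, against 24.8% of genes averaging 10 counts or more. Log2 fold changes of the 6 genes ran from -0.14 to 0.08, and the lowest adjusted p was 0.409. Bax, which forms pores in the mitochondrial outer membrane, was at 560, 459 and 632 in controls and 515, 566 and 467 in knockouts. Bbc3 (PUMA), which frees Bax and its relatives to act, was at 90, 103 and 105 in controls and 108, 85 and 93 in knockouts. These libraries overlapped in both genes. Pmaip1 (NOXA), a protein of the same kind as PUMA, was at 23 to 35 in controls and 23 to 49 in knockouts. Apaf1, the scaffold that activates caspase 9, had means of 1192 ± 115 and 1243 ± 58.5. Ei24, a membrane protein gene induced by p53, had 1570 ± 61.4 and 1441 ± 76.5. Aen, an apoptosis-enhancing nuclease of the nucleus, had 811 ± 26.1 and 735 ± 39.7, and was the member of this group whose libraries did not overlap (adjusted p = 0.409).

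Of the 2 p53-inducible nuclear proteins, 1 rose, where 3.4% of genes averaging 10 counts or more were called higher. Trp53inp1 (chromosome 4, 11156431 to 11174379, plus strand) encodes a stress-induced protein that works with p53 and in autophagy. Its counts were 578, 542 and 496 in controls and 692, 752 and 857 in knockouts, so that every knockout exceeded every control. The mean rose from 539 ± 41.1 to 767 ± 83.5, or 1.42-fold (log2 0.51 ± 0.10; limma adjusted p = 0.00516). The call was lost without control 3 (adjusted p = 0.0678), without knockout 3 (adjusted p = 0.0546) and without the robust option (adjusted p = 0.0661). Trp53inp1 has 38.8% GC, the lowest of the members, and after removal of the GC and length trend its difference was 0.34 (adjusted p = 0.0138). Trp53inp2, its relative in autophagy, was at 5111, 5399 and 5221 in controls and 5690, 4544 and 5654 in knockouts (0.01 ± 0.09, adjusted p = 0.981). Whether the difference of Trp53inp1 exceeds that of Trp53inp2 was not tested.

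Among 9 genes of growth arrest and signalling, 1 rose, where 3.4% of genes averaging 10 counts or more were called higher. Btg2 (chromosome 1, 134075170 to 134079120, minus strand) encodes an antiproliferative protein that recruits the deadenylase complex to messenger RNAs. Its counts were 758, 772 and 719 in controls and 883, 1013 and 917 in knockouts, without overlap. The mean rose from 749.7 ± 27.5 to 938 ± 67.4, or 1.25-fold (log2 0.32 ± 0.09; limma adjusted p = 0.0439). After removal of the GC and length trend the difference was 0.35 (adjusted p = 0.00703). The call was lost without control 1, 2 or 3 or knockout 2 or 3 (adjusted p up to 0.227), with the replicate block (adjusted p = 0.0843) and without the robust option (adjusted p = 0.0970).

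Ccng1, which encodes cyclin G1, was the target with a pair of half-sites printed above and had the third highest level per length of the members. Its counts were 3724, 3968 and 3728 in controls and 4042, 3968 and 4977 in knockouts. Knockout 3 stood apart from the other 5 libraries, and the log2 fold change was 0.18 ± 0.09 (adjusted p = 0.314), or 0.06 after removal of the GC and length trend. Plk2, a polo-like kinase, was at 2522, 2565 and 2391 in controls and 2715, 3641 and 2835 in knockouts (0.29 ± 0.10, adjusted p = 0.117). The knockouts of Plk2 lay above the controls, with knockout 2 far above the other knockouts, and the threshold was not passed. Without the filter on low values Plk2 passed (adjusted p = 0.0320), the 1 of 16 alternative fits in which it did.

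The 3 Gadd45 genes, whose small proteins bind stress kinases and cell cycle regulators, went different ways without passing. Gadd45a was at 21, 36 and 39 in controls and 45, 61 and 45 in knockouts (0.67 ± 0.25, adjusted p = 0.141). An annotated antisense gene, E230016M11Rik, overlaps 19.1% of its exon bases and was at 25 to 27 in controls and 36 to 46 in knockouts; whether the authors counted by strand is not given, so reads of the pair cannot be told apart. Gadd45b was at 199, 184 and 190 in controls and 210, 215 and 189 in knockouts, which overlap. Gadd45g was at 332, 343 and 363 in controls and 238, 321 and 202 in knockouts, with every knockout below every control (-0.47 ± 0.14, adjusted p = 0.0616). Without knockout 2, the knockout nearest to the controls, the difference of Gadd45g was -0.65 (adjusted p = 0.00541). Without knockout 3 it was -0.32 (adjusted p = 0.294), and after removal of the GC and length trend -0.32 (adjusted p = 0.132). Gadd45g passed in 3 of 16 alternative fits, and in 1 of the 6 that left out a single library.

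Zmat3, an RNA-binding zinc finger protein, had means of 763 ± 50.2 and 841 ± 128 (adjusted p = 0.545). Phlda3, an inhibitor of Akt signalling, had 494 ± 26.5 and 495 ± 44.3, a difference of 0.00 ± 0.10. Rps27l, a ribosomal protein that is nearly the same as Rps27, had 1247 ± 171 and 1199 ± 172, and its counts are uncertain because reads of such copies can be split.

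**Figure D3:**
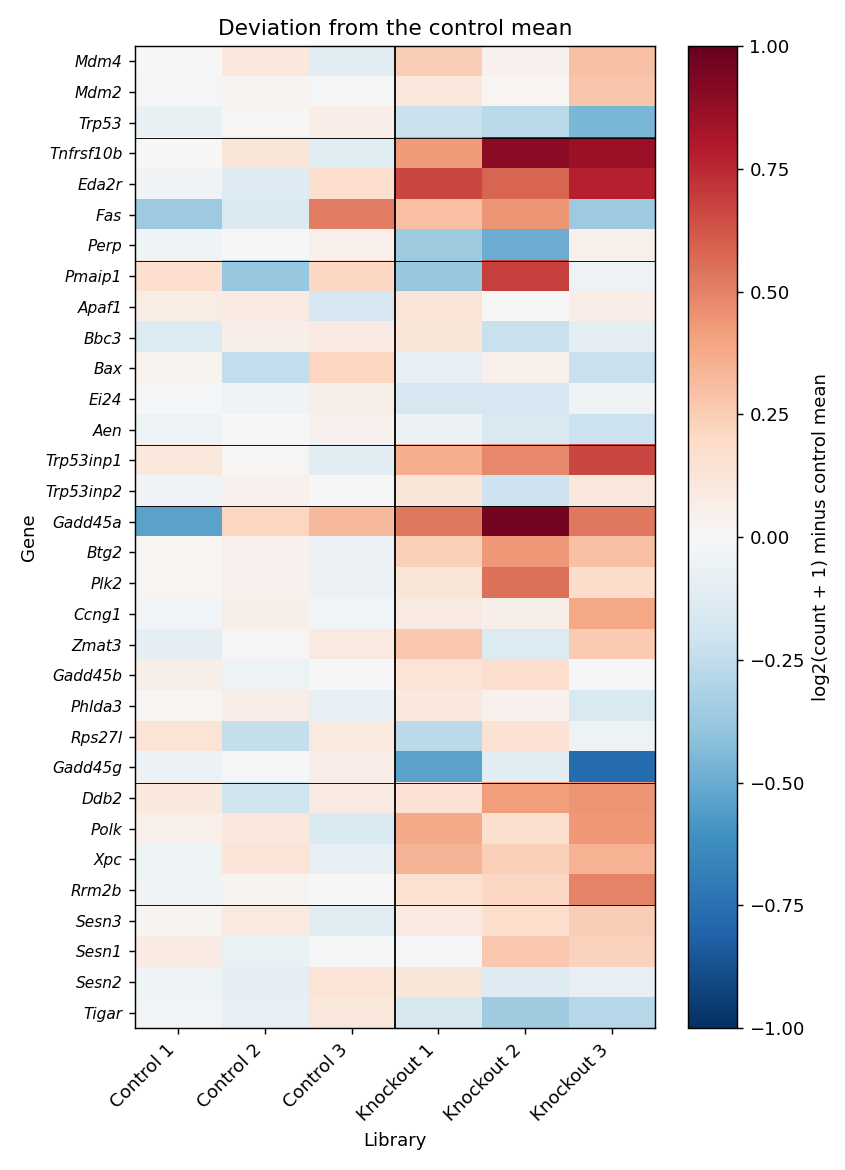
Deviation of each member (rows, by role) from its control mean in each library (columns), as log2(count + 1) minus the control mean; red is above and blue below. The red rows across all 3 knockouts include Tnfrsf10b, Eda2r, Trp53inp1 and Btg2, which passed the threshold. They also include Gadd45a and the 4 genes of DNA repair and nucleotide supply, which did not pass. Trp53 is blue.

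Genes of DNA repair and nucleotide supply all lay above 0, but 0 of 4 passed with limma or with voom weights. An unadjusted limma p under 0.05 was reached by 4 of 4, against 18.7% of all tested genes and 24.8% of those averaging 10 counts or more. In all 4 the knockout libraries lay above the control libraries, where this held for 11.1% of all tested genes and 14% of those averaging 10 counts or more. Xpc, which recognises damage for nucleotide excision repair, was at 385, 436 and 377 in controls and 505, 470 and 507 in knockouts (0.31 ± 0.10, limma adjusted p = 0.0860). After removal of the GC and length trend Xpc was at 0.38 (adjusted p = 0.0123), the 1 of 16 alternative fits in which it passed. Ddb2, a damage sensor of the same pathway, was at 105, 85 and 104 in controls and 108, 131 and 133 in knockouts (0.34 ± 0.16, adjusted p = 0.254). Exons of Acp2 on the other strand overlap 23.8% of the exon bases of Ddb2, so its counts are uncertain. Polk, a polymerase that copies past damaged bases, was at 242, 252 and 210 in controls and 304, 262 and 316 in knockouts (0.32 ± 0.12, adjusted p = 0.141). Rrm2b, a p53-induced subunit of ribonucleotide reductase, was at 436, 457 and 449 in controls and 498, 517 and 631 in knockouts (0.29 ± 0.10, adjusted p = 0.131). After removal of the GC and length trend the differences of Ddb2, Polk and Rrm2b were 0.29, 0.21 and 0.14. Their limma adjusted p in that fit was 0.277, 0.284 and 0.329, so none of these passed.

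Of 4 genes of metabolism and redox control, 0 passed with limma or with voom weights. An unadjusted limma p under 0.05 was reached by 1 of 4, Tigar, which is close to the share of 24.8% among genes averaging 10 counts or more. The sestrins restrain mTORC1 signalling and oxidative damage. Sesn1 was at 598, 539 and 560 in controls and 558, 680 and 664 in knockouts (0.16 ± 0.10, adjusted p = 0.408). Sesn2 was at 318, 307 and 361 in controls and 356, 300.0 and 309 in knockouts (-0.03 ± 0.11, adjusted p = 0.906). Sesn3 was at 2175, 2282 and 1963 in controls and 2269, 2409 and 2535 in knockouts (0.17 ± 0.09, adjusted p = 0.307). Libraries of the 2 genotypes overlapped in each sestrin. Tigar, a phosphatase that lowers glycolytic flux, was at 400.0, 385 and 440.0 in controls and 364, 318 and 334 in knockouts (-0.27 ± 0.11, adjusted p = 0.162). Each knockout of Tigar lay below each control, as held for 14.8% of genes averaging 10 counts or more, and the gene did not pass.

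Across the members, libraries of the genotypes did not overlap in 14 of 32, with knockouts higher in 10 and lower in 4, where 10.6% of all tested genes lay lower without overlap. The members without overlap are 43.8% of the 32, against 21.7% of all tested genes and 28.8% (14% higher and 14.8% lower) of those averaging 10 counts or more. An unadjusted p under 0.05 was reached by 15 members (46.9%), against 18.7% of all tested genes and 24.8% of those with a mean of at least 10. Knockout 3 held the highest value of 11 members (34.4%), where it held the highest of 23.4% of genes averaging 10 counts or more, and it was also the library whose deviations followed GC content most. Controls 1 and 2 held the highest value of no member, and of 11.3% and 15.1% of genes averaging 10 counts or more. After removal of the GC and length trend the median of the members was 0.08, against 0.03 over all tested genes, and 6 members changed sign without passing under either fit: Apaf1, Bax, Bbc3, Phlda3, Pmaip1 and Sesn2.

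Levels per kilobase of the longest annotated transcript, as means over the 6 libraries, ran from 9.64 for Fas to 2126 for Rps27l. Trp53inp2 followed at 1324, Ccng1 at 1158 and Plk2 at 992 normalised counts per kilobase. Trp53 was at 445, close to Mdm4 at 493 and Mdm2 at 412. Of the members that rose, Btg2 was at 308, Trp53inp1 at 120.2, Tnfrsf10b at 91.2 and Eda2r at 35.7. The 32 genes lie on 15 chromosomes and their median GC content, 48.5%, is close to the 49.0% of all tested genes.

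Levels of marker genes of other cells were compared beside these results. Over all tested genes 2.31% were called higher and 2.55% lower, and 3.4% and 3.78% of those averaging 10 counts or more. Of 10 leukocyte and macrophage markers, 2 rose (Ptprc and Cx3cr1) and 0 fell; their summed count was 572 to 805 in controls and 812 to 1081 in knockouts, and none was at 0. Of 8 erythroid markers in the table none passed, with sums of 49651 to 136146 in controls and 106690 to 146379 in knockouts. Of 10 endothelial markers 1 rose (Emcn), and of 10 cardiomyocyte markers 1 fell (Myh6), with cardiomyocyte sums of 596447 to 648744 and 484889 to 576745. Of 8 fibroblast and valve markers and 7 mural markers none passed, and of 6 epicardial markers 1 rose (Krt19). The part of such cells in the differences of Tnfrsf10b, Eda2r, Trp53inp1, Btg2 and Trp53 was not tested.

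Few other genes of the pathway passed the test, and those that did went in both directions. Of 23 tested regulators of p53, such as the damage kinases Atm and Atr, the checkpoint kinases and the ribosomal proteins that bind Mdm2, none passed with limma or with voom weights, and 4 reached an unadjusted p under 0.05 (17.4%, against 18.7% of all tested genes). Their median log2 fold change was -0.03. Of 27 further targets of p53, 1 rose and 2 fell (11.1% in all, against 4.86% of all tested genes), with a median of 0.01. Among genes averaging 10 counts or more, 3.4% were called higher and 3.78% lower. The riser was Cdkn1a, the p21 inhibitor of cyclin-dependent kinases, at 402, 398 and 433 in controls and 578, 556 and 501 in knockouts (0.40 ± 0.10, adjusted p = 0.0211). Knockouts of Cdkn1a exceeded all controls. After removal of the GC and length trend its difference was 0.51 (adjusted p = 0.000713), and the call was lost with any library but knockout 3 left out (adjusted p up to 0.128) and without the robust option (adjusted p = 0.0679).

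The further targets that fell were Steap3 and Psrc1. Steap3, a ferrireductase of iron uptake, fell from 385 ± 22.9 to 252 ± 50.9 (-0.63 ± 0.13, adjusted p = 0.00720), a call lost without control 3 (adjusted p = 0.0823) and without the robust option (adjusted p = 0.0985). Psrc1, a microtubule-binding protein of the spindle, fell from 597 ± 72.0 to 420.0 ± 52.9 (-0.51 ± 0.11, adjusted p = 0.0121), a call lost without control 1 or 3 or knockout 3 (adjusted p up to 0.137) and without the robust option (adjusted p = 0.111). Of 26 genes of the apoptosis machinery, 0 rose and 1 fell (3.85%), with a median of -0.06. Called lower were 2.55% of all tested genes and 3.78% of those averaging 10 counts or more, close to the share in this list. In this list 10 genes (38.5%) had an unadjusted p under 0.05, and libraries did not overlap in 10, with knockouts higher in 3 and lower in 7. The shares over genes averaging 10 counts or more were 24.8% and 28.8%. Bok, a relative of Bax, fell from 537 ± 34.4 to 286 ± 72.7 (-0.94 ± 0.15, adjusted p = 0.00285) and kept the call with each library left out, but not without the robust option (adjusted p = 0.0621).

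**Figure D4:**
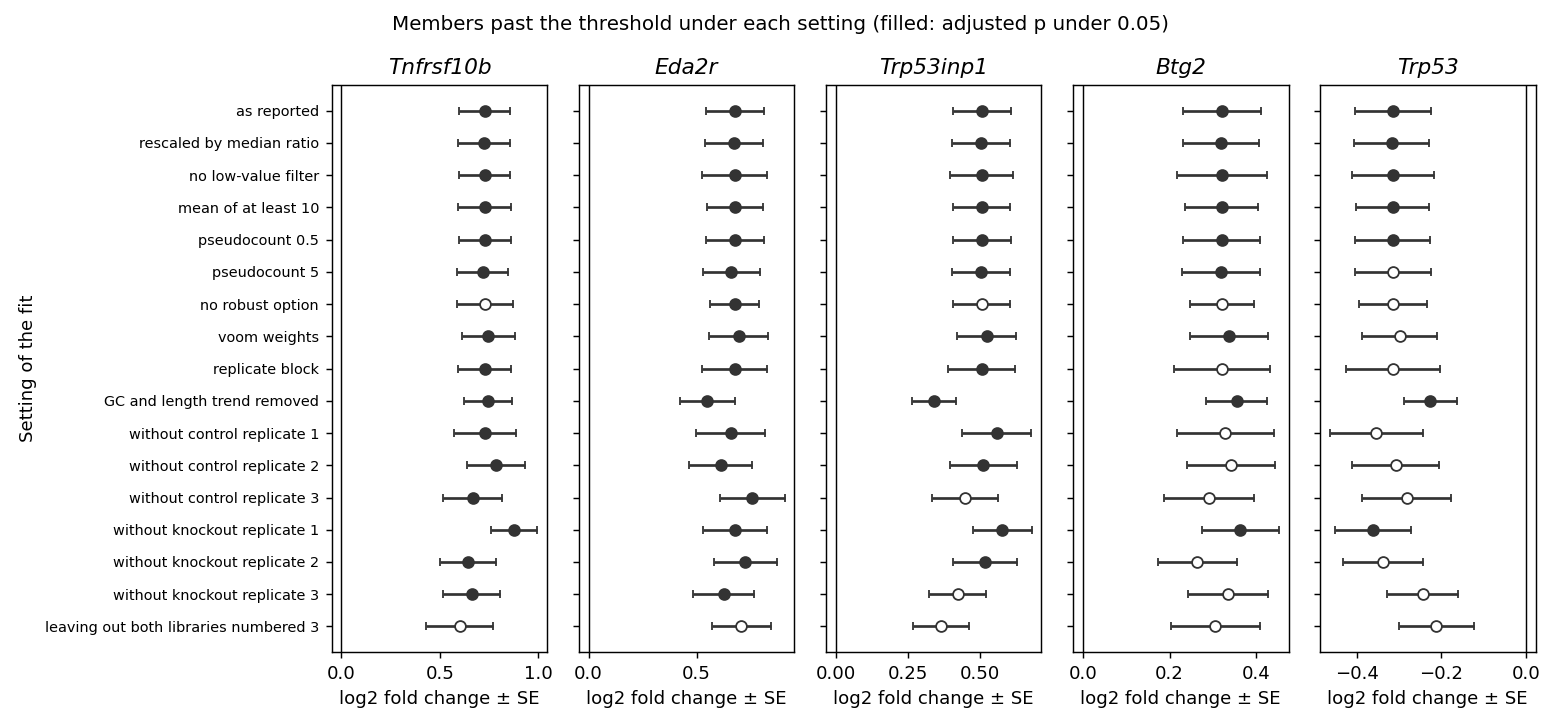
Log2 fold change (x axis, with SE) of the 5 members past the threshold under each setting of the fit (y axis); filled points have an adjusted p under 0.05. Each gene keeps its direction in all 16 alternatives, and the filled points number 15 for Eda2r, 14 for Tnfrsf10b, 12 for Trp53inp1, 8 for Btg2 and 6 for Trp53 among them.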

How the data were processed

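PolyA RNA of embryonic hearts was sequenced as single-end reads of 75 bp from a stranded library preparation with 500 ng of total RNA, per the labels' protocols. The tools in the submitters' processing notes are STAR 2.4.2a, featureCounts 1.5.0, Trimmomatic, DESeq and DESeq2, and the build is mm10; their roles, the annotation and the strand setting are not given there. The values deposited by the authors are best called a score: read counts scaled by library and rounded, as whole numbers missing at even spacing show in 3 libraries (implied multipliers 1.01, 1.05 and 1.06). Library totals of these values lie between 19770390 and 20215282, and with scales near 1 a value is close to a number of reads; raw depth is not known exactly, and low members carry the spread of small counts.

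Raw counts could not be recovered, so limma 3.58.1 in R 4.3.3 was fitted to log2(value + 1) with variance trend and robust moderation, two-sided, over the 26747 genes with a mean of at least 1 in a genotype. Adjusted p-values are Benjamini-Hochberg over all of these. A pseudocount of 1 understates changes of low genes. The fit was tested on simulated data that held no GC trend by library and no sex difference. That test cannot tell how many calls are false in these data. All 32 members are reported; those past the threshold, Trp53, Mdm2 and Mdm4 get full values, and up to 4 passing genes of each other list are named. Members, lists and the role groups of members were chosen with earlier results of these data known, and no set test was run. Replicate numbers mark no shared animal in the labels. Whether libraries are separate animals is not stated, so p-values reflect library spread; those numbered 3 differ in sex-linked genes from the others, and spread among the rest may be technical. Coordinates, length and GC come from GENCODE M21 (GRCm38, the assembly of mm10), which holds 99.3% of the identifiers. Alternatives were rescaling, filters, pseudocounts, voom weights, no robust option, a replicate block, a GC and length trend per library removed, and leaving out libraries.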

Additional observations from a re-analysis of the deposited data

How the results depend on the processing

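All 5 members past the threshold kept their direction in each of 16 alternatives. With 3 libraries per genotype the SE of a member was 0.08 to 0.33 on the log2 scale, so differences of the size of Mdm2 or Ccng1 could not be resolved. Leaving out each library in turn gave 186 to 608 genes called higher and 234 to 739 lower, 2 to 4 members higher and 0 to 1 lower. The same gave 0 to 1 regulators of p53 lower, 0 to 1 further targets higher and 0 to 2 lower, and 0 to 1 genes of the apoptosis machinery higher and 1 to 2 lower. Moderation without the robust option left 144 genes higher and 206 lower over the whole table; 1 member was higher and 0 lower, 0 further targets were higher and 0 lower, and 0 apoptosis genes were lower. Dropping both libraries numbered 3 left 14 genes higher and 24 lower, with 0 members higher and 0 lower, 0 further targets higher and 0 lower, and 0 apoptosis genes lower; Rbpms2 was at -0.79 (adjusted p = 0.142). That fit rests on 2 libraries per genotype. Without a filter on low values, 963 genes were higher and 955 lower, 5 members were higher (with Plk2 added) and 2 lower (Trp53 and Gadd45g), 1 regulator was lower, and 1 apoptosis gene was higher and 2 lower. With a mean of at least 10 required, 3 apoptosis genes were lower. With a pseudocount of 5 and with voom weights, 0 members were lower. With the GC and length trend removed, 2 further targets were higher, and 2 apoptosis genes were higher and 4 lower. The filters change how many genes are tested, and leaving out libraries changes how many samples are used; for the other settings the cause was not tested.

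The replicate number as a block gave 3 members higher and 1 lower, with Gadd45g called (adjusted p = 0.0275) and Btg2 and Trp53 not, and 1 regulator of p53 lower; over all genes 674 were higher and 681 lower. Deviations of same-numbered libraries correlated at -0.02, 0.06 and 0.14, and not every library correlated best with its own number, so the numbers were not taken to pair the samples.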

Other observations

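Genes that share the neighbourhood or exons of members were read from the same table. Wrap53, which starts next to Trp53 on the other strand, had no exon overlap with it; its counts were 329, 328 and 316 in controls and 281, 275 and 268 in knockouts, below all controls without passing the threshold (-0.24 ± 0.11, limma adjusted p = 0.221). Acp2, whose exons overlap those of Ddb2, was at 742, 836 and 757 in controls and 849, 858 and 845 in knockouts. Ei24 and Tigar overlap antisense genes that held at most 3 counts in a library. Gm45808, on the same strand as Bax, overlaps 12.2% of its exon bases. Gm49085, on the other strand, overlaps 8.04% of those of Rrm2b. Neither had values under these names, so their part in the counts of Bax and Rrm2b is not known.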
